A study of Homo sapiens with 58 samples.

Results

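GNA11 and FOXK2 are a pair of human genes whose 3'UTRs carried more tags crosslinked to the RNA-binding protein HuR in the nuclear fraction of arsenite-treated cells than in that of mock-treated cells. They were chosen by those nuclear values, and every peak that the deposited table assigns to either gene name was taken, once repeated lines had been dropped. This gave 57 of the 387214 peaks, 4 in GNA11 and 53 in FOXK2. A peak here is a window of 20 nt in which sequenced RNA fragments (tags) accumulate after crosslinking and immunoprecipitation. The nuclear arsenite and mock values are the ones used to select the genes, so they are described without a test. The tests below use the cytoplasmic fraction, the unfractionated libraries and libraries captured by proximity labelling, whose values the rule for the choice did not use. They were nevertheless planned with earlier results of these data known.

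HuR, the product of ELAVL1, binds U-rich and AU-rich RNA in introns and 3'UTRs, is mostly nuclear in resting cells, and shuttles to the cytoplasm. Intron tags come largely from unspliced RNA in the nucleus, whereas 3'UTR tags can come from spliced mRNA in either compartment. Arsenite is an oxidative stressor that halts much of translation and drives mRNAs with RNA-binding proteins into stress granules, whose core protein is G3BP1. GNA11 encodes the alpha subunit G11 of the Gq family, which couples cell-surface receptors to phospholipase C beta. FOXK2 encodes a forkhead transcription factor that works with the SIN3A and HDAC corepressors and with the deubiquitinase BAP1.

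Every library was made by CLIP-seq with the HuR antibody 3A2 from Huh-7.5, a line derived from human hepatocellular carcinoma. The cells either received 0.5 mM sodium arsenite for 45 min or were mock treated. The nuclear and cytoplasmic fractions came from wild-type cells without an APEX reaction, with 3 mock and 3 arsenite libraries in each. The other libraries came from lines expressing the peroxidase APEX, which biotinylates its surroundings, in the nucleus (APEX-NLS), in the cytoplasm (APEX-NES) or fused to the stress granule protein G3BP1 (APEX-G3BP1), all after the APEX reaction. Input libraries from these lines had HuR immunoprecipitation only: 2 mock and 2 arsenite for NLS, the same for NES, and 4 mock and 5 arsenite for G3BP. Enriched libraries had an additional streptavidin capture: 4 mock and 4 arsenite for NLS and for NES, and 6 mock and 7 arsenite for G3BP. Each APEX construct is represented by 1 line, and the fractions and the APEX libraries were made in separate library sets, so that a difference between fractions and inputs cannot be told apart from a difference between sets.

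In the fractions each library had 235471 to 673322 tags in peaks, the inputs 1353 to 484305 and the enriched libraries 519 to 86419, and 3 of the 17 inputs and 13 of the 29 enriched libraries had fewer than 10000. Values are given in CPM, tags per 1000000 of the library total, and 3 tags corresponded to between 1.71 and 4.37 CPM in the fraction libraries. The liver identity of the line was checked on 10 hepatocyte genes, of which 8 had tags, while no peak of the table carried the name APOA1 or TTR. Tags in ALB averaged 483 CPM in the cytoplasmic mock libraries and those in AFP 1257 CPM, and the leukocyte gene PTPRC had tags in 25 libraries, at a mean of at most 3.43 CPM in a fraction group. No peak carried the name of the fibroblast genes COL1A1 and COL1A2 either, which in a table of called peaks gives no level for them. The nuclear RNA NEAT1 averaged 413 CPM in nuclear and 125 CPM in cytoplasmic mock libraries, but MALAT1 was similar in both, with 2562 and 2394 CPM, so that the cytoplasmic libraries also held tags of a nuclear RNA.

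GNA11 (ENSG00000088256) lies on the plus strand of chromosome 19, at 3094362 to 3123999 in RefSeq on GRCh38.p14, the build that the submitters' processing notes name. Its 4 peaks were all annotated as 3'UTR, and no intron peak carried its name, so a balance between intron and 3'UTR tags could not be formed for it. Their 1553 tags in the fraction libraries lay mostly in 1 peak at chr19:3121850-3121870, the one with the largest nuclear difference between arsenite and mock and called the main peak below, which ended 2129 bases before the annotated end of the gene. The second strongest, at chr19:3121345-3121365, ended 2634 bases before it and also touched coding annotation. The remaining peaks ended 2256 and 166 bases before the gene end.

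FOXK2 (ENSG00000141568) lies on the plus strand of chromosome 17, at 82519732 to 82604602. Its 53 peaks comprised 41 in introns, 5 in the 3'UTR, 3 that the table classes as TE, 3 classed as Other and 1 in coding sequence. The fraction libraries held 599 tags in its 3'UTR peaks and 473 in its intron peaks. The 3'UTR tags lay mainly in 2 peaks, 1 at chr17:82602919-82602939, the main peak by the same rule, which ended 1663 bases before the gene end, and 1 at chr17:82603738-82603758, which ended 844 bases before it and also carried an intron annotation. The intron tags were spread thinly: 40 of the 41 intron peaks had a mean under 5 CPM in every fraction group, and the median of their highest group means was 0.966 CPM. Of the peaks named FOXK2, 3 (2 of class TE and 1 intron peak) lay beyond the RefSeq end of the gene.

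In the nuclear fraction, the main GNA11 peak held 4.37, 15.5 and 7.72 CPM in the 3 mock libraries, from 3, 17 and 8 tags. After arsenite it held 130.5, 136.8 and 149.9 CPM, from 163, 171 and 173 tags. The lowest arsenite library was thus far above the highest mock library, and the means were 9.18 ± 5.68 and 139 ± 9.88 CPM (SD, n = 3), a ratio of 15.1. With tags summed over libraries the ratio was 13.99, with a 95% interval of 9.56 to 21.3 that covers counting error only. The peak at chr19:3121345-3121365 held 2.91, 0.91 and 2.90 CPM in mock and 13.6, 14.4 and 12.99 CPM in arsenite nuclei. The peak between these, at 3121723, held 2.91, 0 and 0.97 CPM in mock and 8.01, 2.40 and 2.60 CPM in arsenite nuclei, with overlapping groups, and the most distal peak was at 0 in all mock nuclei and between 0.87 and 3.20 CPM after arsenite. Summed over the 3'UTR, GNA11 went from 12.7 ± 3.23 to 159 ± 6.39 CPM (SD, n = 3).

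FOXK2 had the same pattern at a lower level. Its main 3'UTR peak held 0, 0 and 1.93 CPM in mock nuclei, which is 2 tags in all, and 26.4, 32.8 and 45.0 CPM in arsenite nuclei, from 33, 41 and 52 tags. The groups did not overlap, and the ratio of summed tags was 48.7 with a counting interval of 13.2 to 406.2, wide because of the few mock tags. The peak at chr17:82603738-82603758 held 2.91, 0.91 and 4.83 CPM in mock and 11.2, 13.6 and 12.99 CPM in arsenite nuclei. The other 3 FOXK2 3'UTR peaks had means between 0.322 and 1.39 CPM in mock and between 1.60 and 3.85 CPM in arsenite nuclei, with overlapping groups. The 3'UTR sum of FOXK2 was 4.37, 6.36 and 7.72 CPM in mock and 47.2, 54.4 and 64.1 CPM in arsenite nuclei, with means of 6.15 ± 1.69 and 55.2 ± 8.46 CPM (SD, n = 3).

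The introns of FOXK2 did not share this pattern in the same nuclear libraries. Their summed tags came to 30.6, 44.6 and 45.4 CPM in mock and 31.2, 48.0 and 55.4 CPM in arsenite nuclei. The groups overlapped and the ratio of the means was 1.12, against 8.98 for the 3'UTR of the same gene. The strongest intron peak, at chr17:82588197-82588217 and 16385 bases before the gene end, held 5.83, 4.55 and 8.69 CPM in mock and 10.4, 12.8 and 6.93 CPM in arsenite nuclei. The peak of class Other at 82522057, near the start of the gene, averaged 5.77 CPM in mock and 2.69 CPM in arsenite nuclei, again with overlapping groups. FOXK2 therefore combined a 3'UTR with non-overlapping nuclear groups and introns with overlapping ones.

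**Figure D1:**
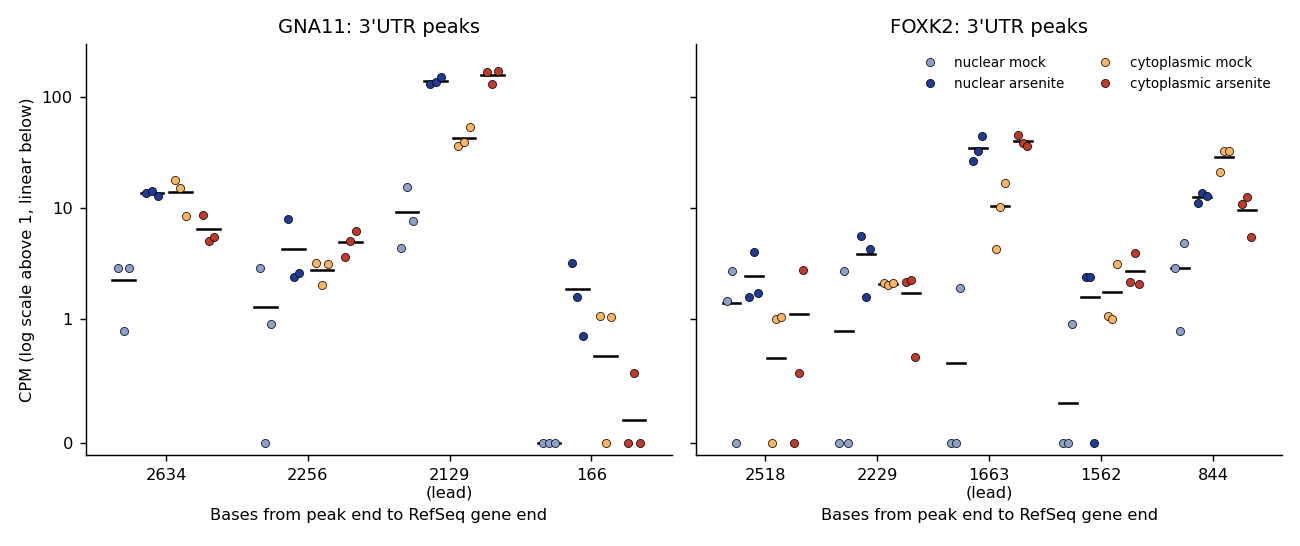
HuR tags in each 3'UTR peak of GNA11 (4 peaks) and FOXK2 (5 peaks), in CPM on an axis that is logarithmic above 1 and linear below; points are the 3 libraries of each fraction and treatment, bars their mean, and peaks are placed in order along the gene by their distance to its annotated end. The main peak of each gene stands above its mock values in both fractions, whereas the arsenite libraries of the FOXK2 peak 844 bases from the gene end lie above mock in the nuclear and below mock in the cytoplasmic fraction, and those of the GNA11 peak 2634 bases from it lie above mock in the nuclear fraction and overlap it in the cytoplasmic fraction.

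Across all peaks these nuclear shifts had the direction common to 3'UTRs. Of the 3'UTR peaks with tags in 3 or more of the 6 nuclear libraries, 20.3% had every arsenite library above every mock library and 4.13% had the opposite. Among the members chosen on this contrast, 3 of 4 GNA11 and 2 of 5 FOXK2 3'UTR peaks were above and none below. For 3'UTR sums per gene, 33.4% of all genes were above and 3.52% below. Intron peaks leaned the other way, with 5.53% above and 10.2% below, and intron sums likewise, with 6.37% above and 16.1% below. Of the 41 FOXK2 intron peaks, 25 had tags in enough nuclear libraries to be read in this way: none was above, 1 was below, and 24 overlapped. Of the 3 FOXK2 peaks of class TE, 1 was above, with a mean of 0.822 CPM from 3 tags, and this peak lay past the RefSeq end of FOXK2, inside WDR45B.

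In mock cells both 3'UTRs carried more tags in the cytoplasmic than in the nuclear libraries, and after arsenite the sums, which the main peaks dominate, overlapped between the fractions. The GNA11 3'UTR sum was 58.5, 57.0 and 66.4 CPM in the cytoplasmic mock libraries, all above the nuclear mock libraries, which stood at a ratio of 0.210 to them. After arsenite the nuclear to cytoplasmic ratio was 0.944 and the libraries of both fractions overlapped. The GNA11 peaks other than the main one differed from this: after arsenite they were higher in nuclear than in cytoplasmic libraries, by a ratio of 1.71 without overlap. For FOXK2 the 3'UTR ratio was 0.140 in mock, without overlap, and 0.999 after arsenite, with overlap. The FOXK2 introns were higher in nuclear than in cytoplasmic libraries in mock, by a ratio of 1.82 without overlap, and after arsenite the ratio was 1.61 with overlap. Because the nuclear values chose the genes, these ratios are descriptions. Values are relative to each library's total, so the amount of an mRNA in a fraction and the share of its copies bound by HuR cannot be told apart.

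In the cytoplasmic fraction arsenite could be tested on libraries that the rule did not use, and there GNA11 rose while most 3'UTRs did not. Its main peak held 36.2, 39.7 and 53.8 CPM in mock, from 34, 39 and 51 tags, and 170, 130 and 170 CPM after arsenite, from 235, 229 and 245 tags. All arsenite libraries were above all mock libraries, with means of 43.2 ± 9.31 and 157 ± 23.0 CPM (SD, n = 3). In a limma fit over 193897 peaks on log2(CPM + 2.28), the difference was 1.81 ± 0.21 (SE), a fold of 3.52 on that scale with a 95% interval of 2.65 to 4.67 and an adjusted p of 0.00622. Only 0.112% of the 28592 3'UTR peaks tested were called higher and 2.69% lower at an adjusted p of 0.05, and the GNA11 difference exceeded 99.97% of them. The call was lost without cytoplasmic mock replicate 2, where the difference was 1.77 with an adjusted p of 0.245 and limma called 0 peaks in all, against 39167 with an unadjusted p under 0.05.

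Summed over its 3'UTR, GNA11 held 58.5, 57.0 and 66.4 CPM in cytoplasmic mock and 182, 141 and 182 CPM in cytoplasmic arsenite libraries. The limma difference was 1.43 ± 0.16 (SE) on the log2 scale, a fold of 2.70 with an interval of 2.16 to 3.37, and the adjusted p over 22884 gene regions was 2.84e-05. A gene region is the sum of a gene's peaks in 1 annotation class. Of 6685 3'UTR regions, 0.942% were called higher and 18.6% lower, their median difference was -0.30, and GNA11 was above 99.93% of them. The same GNA11 region stayed called in all 13 alternative settings, with adjusted p-values up to 0.0230. In these libraries 3'UTR peaks held 42.3% ± 4.58 of the tags in peaks in mock and 24.5% ± 0.943 with arsenite (SD, n = 3), and intron peaks 30.5% ± 3.74 and 43.7% ± 0.760. The part of this class shift in the results for single genes was not tested.

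None of the weaker GNA11 peaks passed the test in the cytoplasm. The one at 3121345 held 18.1, 15.3 and 8.44 CPM in mock and 8.66, 5.12 and 5.56 CPM after arsenite, a limma difference of -0.86 ± 0.32 (SE) with an adjusted p of 0.138. The one at 3121723 averaged 2.80 and 5.00 CPM, with a difference of 0.51 ± 0.28 (SE) and an adjusted p of 0.404. Together the 3 peaks other than the main one averaged 17.4 ± 4.84 CPM in mock and 11.6 ± 0.754 CPM with arsenite (SD, n = 3). Every arsenite library was below every mock library there, but barely, with a highest arsenite value of 12.3 CPM and a lowest mock value of 12.7 CPM. The peak at 3121723 alone went the other way, with every arsenite library above every mock library. In the nuclear fraction the same 3 peaks together averaged 3.53 ± 2.48 CPM in mock and 19.9 ± 4.38 CPM with arsenite.

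In the cytoplasm the main 3'UTR peak of FOXK2 and its distal one lay in opposite directions, but neither difference passed the planned test. The main peak held 4.25, 10.2 and 16.9 CPM in mock and 45.5, 38.7 and 36.2 CPM with arsenite, from 30 and 183 tags in all. The groups did not overlap, but the limma difference of 1.86 ± 0.36 (SE), a fold of 3.64 with an interval of 2.22 to 5.95, narrowly missed the threshold with an adjusted p of 0.0513. It was called in 7 of 13 alternative settings, among them edgeR on whole tags with an adjusted p of 0.000573, and its adjusted p ranged up to 0.245. With 1 library left out, its limma adjusted p was 0.0692 to 0.245, so no such fit called it. The difference exceeded 99.98% of the 3'UTR peaks tested. The distal peak at 82603738 held 21.3, 32.6 and 32.7 CPM in mock and 10.8, 12.5 and 5.56 CPM with arsenite, every arsenite library below every mock library. Its difference of -1.41 ± 0.31 (SE), a fold of 0.376 with an interval of 0.247 to 0.572, had an adjusted p of 0.0684 with limma. It was called in 3 of 13 alternative settings, among them edgeR with an adjusted p of 0.00449 but not edgeR with TMM scaling, and its adjusted p ranged up to 0.281. No limma fit with 1 library left out called it, with adjusted p-values of 0.0605 to 0.281. Of the 3'UTR peaks tested, 3.47% had a lower value.

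With these peaks on opposite sides of 0, the FOXK2 3'UTR as a whole did not differ detectably between the cytoplasmic groups. It held 28.7, 46.9 and 55.9 CPM in mock and 60.6, 58.0 and 47.3 CPM with arsenite, with overlapping groups. The limma difference was 0.36 ± 0.22 (SE), a fold of 1.29 with an interval of 0.9502 to 1.74 and an adjusted p of 0.319. The FOXK2 introns held 26.6, 16.3 and 23.2 CPM in mock and 28.9, 35.2 and 19.5 CPM with arsenite, a fold of 1.23 with an interval of 0.881 to 1.72 and an adjusted p of 0.482. Over all intron regions 13.5% were called higher and 1.05% lower, with a median log2 difference of 0.29, close to the 0.30 of FOXK2.

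Of the members' peaks, 27 had tags in enough cytoplasmic libraries to be tested, and GNA11's main peak was the only 1 called. Among intron peaks of all genes 0.231% were called higher and 0.0424% lower. The lowest adjusted p of a FOXK2 intron peak was 0.125, at 82541288, which was at 0 in all cytoplasmic mock libraries and averaged 1.38 CPM with arsenite. The 3 minor FOXK2 3'UTR peaks had adjusted p-values of 0.648 to 0.881. Read by overlap of the groups, 6.47% of 3'UTR peaks were above and 21.3% below in the cytoplasm, against 2 above and none below of 4 in GNA11, and 1 above and 1 below of 5 in FOXK2. For intron peaks 17.8% were above and 3.84% below, against 1 and 1 of the 15 FOXK2 intron peaks that passed the filter.

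**Figure D2:**
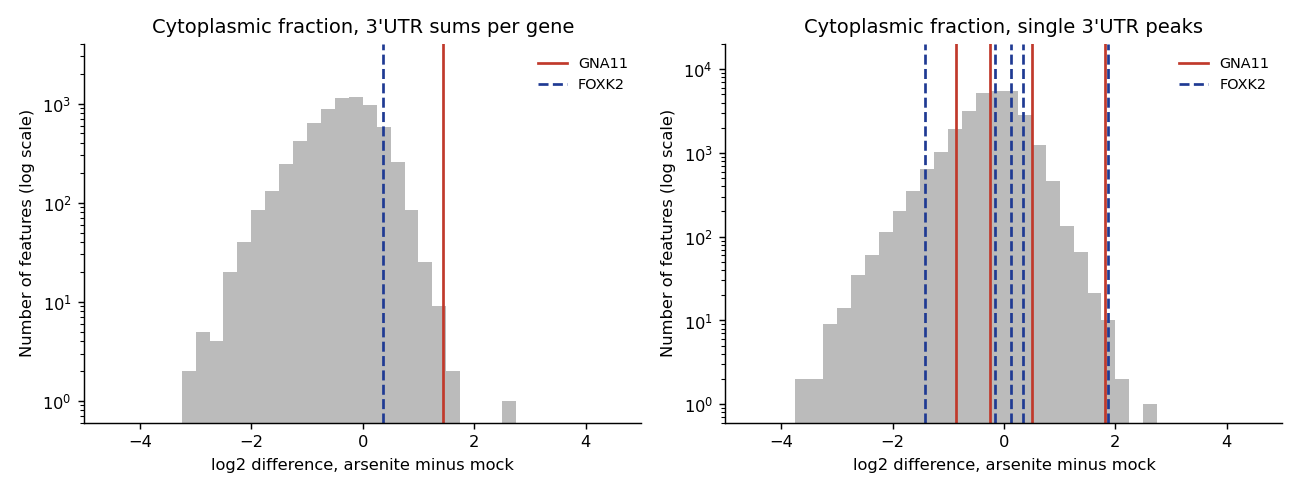
Histograms of the log2 difference between arsenite and mock in the cytoplasmic fraction for 6685 3'UTR sums (left) and 28592 single 3'UTR peaks (right), number of features on a log axis; vertical lines mark GNA11 (solid) and FOXK2 (dashed). The GNA11 sum at 1.43 and the main peaks of GNA11 at 1.81 and FOXK2 at 1.86 lie in the far right tails, whereas the distal FOXK2 peak lies on the left at -1.41.

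**Figure D3:**
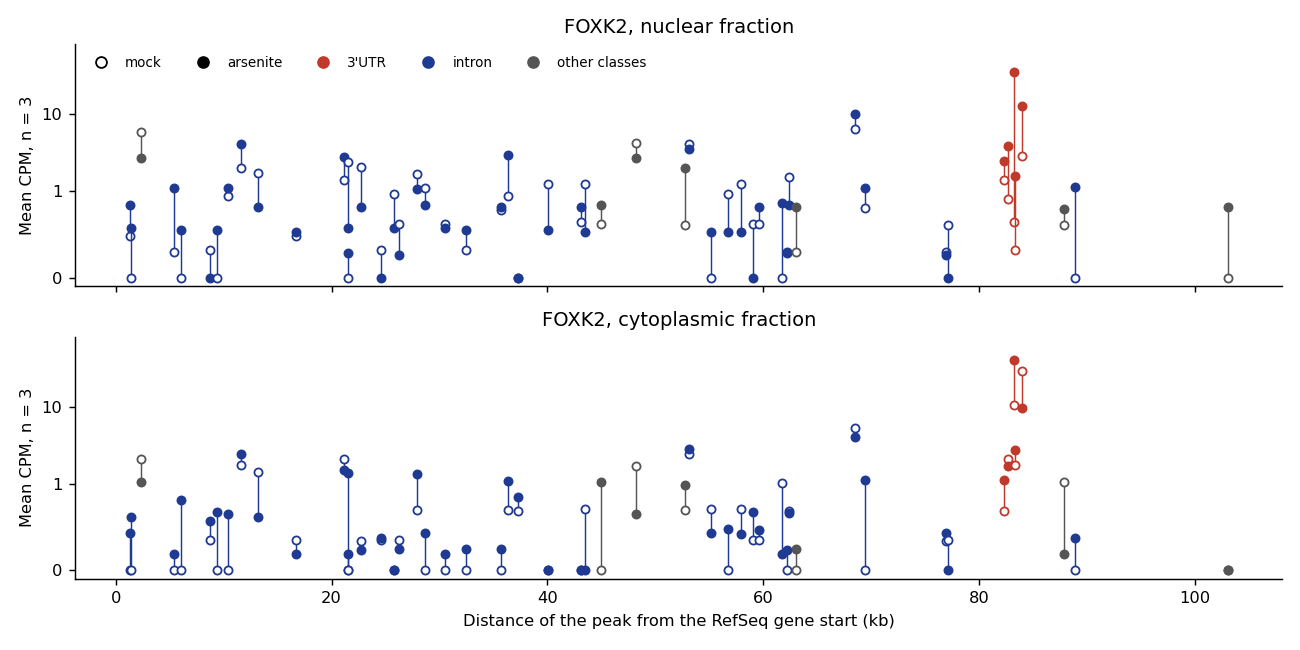
Mean CPM (n = 3) of the 53 FOXK2 peaks against their distance from the annotated gene start in kb, in the nuclear (top) and cytoplasmic (bottom) fraction, with open circles for mock, filled circles for arsenite and colours for the annotation class; the axis is logarithmic above 1 and linear below. The intron peaks stay at or under 10.0 CPM in all groups, while the main 3'UTR peak near the end of the gene stands at 34.8 and 40.1 CPM after arsenite.

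In the cytoplasm a larger share of each gene's 3'UTR tags lay in the main peak after arsenite. In GNA11 the main peak held 70.8% ± 9.62 of 3'UTR tags in cytoplasmic mock and 93.04% ± 0.616 in cytoplasmic arsenite libraries (SD, n = 3), a difference of 22.2 percentage points without overlap. In FOXK2 it held 22.2% ± 7.70 and 72.7% ± 5.29, a difference of 50.5 points, also without overlap. Both differences had a two-sided exact permutation p of 0.1, the smallest that 3 against 3 libraries can give. These shares were examined after the values had been seen. The main peaks were picked for their nuclear arsenite values, and in mock the distal FOXK2 peak was the larger one in both fractions, so a high share after arsenite is in part set by that pick. In the nuclear libraries, which chose the genes, the shares were 68.0% ± 25.8 and 87.4% ± 3.11 for GNA11, with overlapping groups since 1 mock library stood at 94.4%, and 8.33% ± 14.4 and 62.2% ± 7.35 for FOXK2.

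The share of 3'UTR tags among the 3'UTR and intron tags of FOXK2 separated the fractions in mock cells. It was 13.2% ± 1.18 in mock and 55.7% ± 3.95 in arsenite nuclei (SD, n = 3), with ranges of 12.5% to 14.5% and 53.1% to 60.2%. In the cytoplasm it was 65.6% ± 11.97 in mock and 66.9% ± 4.38 with arsenite, a difference of 1.33 points with a two-sided exact permutation p of 0.9. The arsenite nuclei thus came within the range of the cytoplasmic mock libraries, whose lowest value was 51.9%, while the mock nuclei lay well below it. The nuclear values are those that chose the gene. Of the tags in peaks of all genes, 3'UTR peaks held 11.7% in mock and 19.2% in arsenite nuclei, and intron peaks 53.9% and 47.3%. Cytoplasmic mock and arsenite libraries had 42.3% and 24.5% in 3'UTR peaks, and 30.5% and 43.7% in intron peaks.

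**Figure D4:**
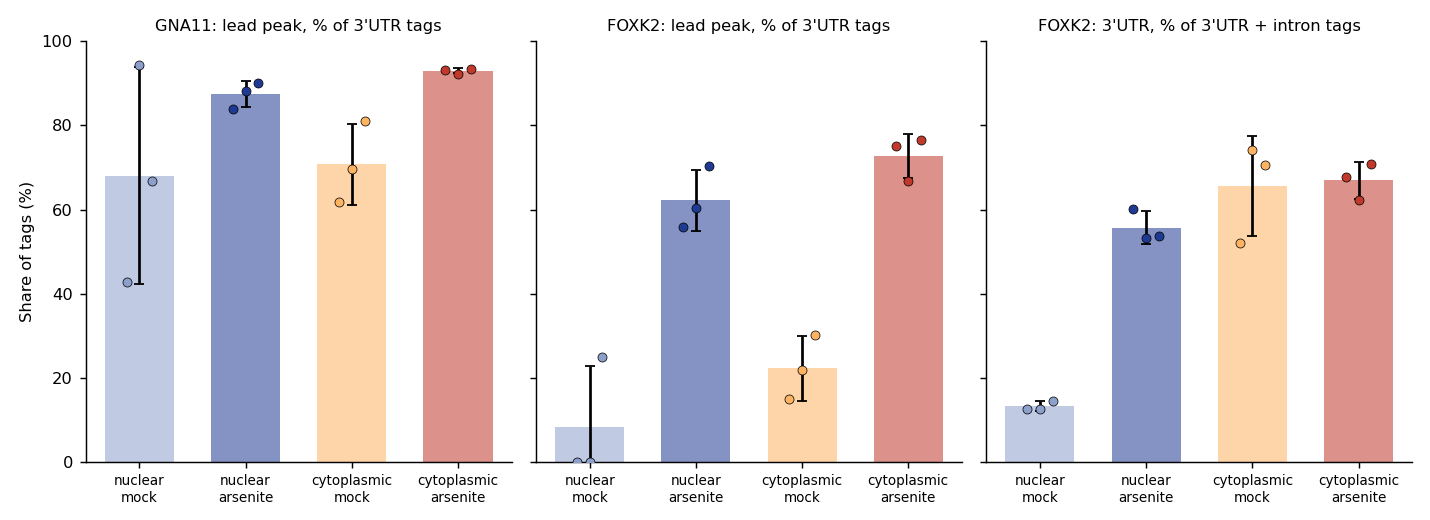
Share of tags, in percent, held by the main peak among GNA11 3'UTR tags (left) and FOXK2 3'UTR tags (middle), and by the 3'UTR among FOXK2 3'UTR and intron tags (right); bars are means with SD and points the 3 libraries of each fraction and treatment. In the middle panel the main FOXK2 peak goes from 8.33% to 62.2% in nuclei and from 22.2% to 72.7% in the cytoplasm, and in the right panel mock nuclei stand alone at 13.2%.

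In the unfractionated inputs, both 3'UTRs held more tags after arsenite in sum, but no difference passed a test. Over 8 mock and 9 arsenite inputs GNA11 had 30 and 119 3'UTR tags, or 4.83 and 15.0 CPM of the pooled totals. Within library sets its pooled values were 13.01 and 27.9 CPM in JL0361 (3 and 65 tags) and 5.28 and 12.8 CPM in JL0388 (17 and 45 tags). In JL1024 they were 3.62 and 4.31 CPM (10 and 9 tags). Arsenite was the higher in each, but the tags in JL1024 and the mock tags in JL0361 are too few to give a direction. Single libraries varied widely: the NLS inputs held 5.56 and 3.43 CPM in mock and 14.4 and 5.04 CPM with arsenite, and the NES inputs 8.39 and 8.27 CPM in mock and 9.89 and 0 CPM with arsenite. The G3BP inputs held 50.6, 9.49, 1.31 and 0 CPM in mock and 58.6, 29.8, 25.7, 9.65 and 0 CPM with arsenite, where 50.6 and 58.6 CPM each stand for 1 tag in a shallow library. With library set and line as covariates, limma gave a fold of 1.24 with an interval of 0.559 to 2.75 and an adjusted p of 0.861.

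FOXK2 had 22 and 89 3'UTR tags in mock and arsenite inputs, or 3.54 and 11.2 CPM pooled, and 94 and 84 intron tags, or 15.1 and 10.6 CPM. Within sets the 3'UTR held 8.68 and 18.4 CPM in JL0361 (2 and 43 tags), 5.59 and 11.6 CPM in JL0388 (18 and 41 tags) and 0.723 and 2.40 CPM in JL1024 (2 and 5 tags). The introns had lower values with arsenite, with 13.01 and 8.57 CPM in JL0361 (3 and 20 tags), 24.5 and 15.9 CPM in JL0388 (79 and 56 tags) and 4.34 and 3.83 CPM in JL1024 (12 and 8 tags). Outside JL0388 these rest on few tags in at least 1 treatment. In limma the 3'UTR had a fold of 1.19 with an interval of 0.554 to 2.54 and an adjusted p of 0.885, and the introns a fold of 1.03 with an interval of 0.475 to 2.24 and an adjusted p of 0.983. Limma called 0.0% of the 11316 input regions higher and 0.0% lower, although 1175 had an unadjusted p under 0.05 and edgeR called 815 and, with TMM scaling, 265. The 3802 3'UTR regions tested in inputs had a median log2 difference of 0.47, and 35.5% of them lay below GNA11 (0.31) and 29.6% below FOXK2 (0.25). Over 25 alternative settings the adjusted p ranged from 0.0816 to 0.968 for the GNA11 and from 0.0702 to 0.979 for the FOXK2 3'UTR. The log2 differences ranged from 0.059 to 0.97 for GNA11 and from 0.076 to 1.06 for FOXK2.

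The 3'UTR share of FOXK2 tags in inputs depended on how libraries were combined and on 1 shallow library. Pooled over libraries it was 13.6% in mock and 41.6% with arsenite in the NLS line, 20.7% and 33.3% in the NES line, and 28.6% and 63.1% in the G3BP line. As a mean over libraries it was 13.8% and 39.4% in the NLS line and 50.4% and 70.9% in the G3BP line, but 20.7% and 18.2% in the NES line, where 1 mock library had no tag to share and 1 arsenite library stood at 0%. The difference of the mean shares was 16.6 points, with a two-sided exact permutation p of 0.167 when treatments were exchanged within set and line. Without G3BP input mock replicate 1, whose only FOXK2 tag lay in the 3'UTR, it was 30.0 points with an exact p of 0.0208. That was the extreme of 14 fits with 1 library left out, which gave 9.44 to 30.0 points and exact p-values of 0.0208 to 0.521.

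The main peaks were not equally prominent in every input set. In JL0361, whose inputs came from the G3BP line alone, they held 2 mock and 53 arsenite tags for GNA11 and 0 and 26 for FOXK2, against 1 and 12 tags and 2 and 17 tags in the other 3'UTR peaks. In JL0388 the other peaks dominated, with 14 and 38 tags for GNA11 and 18 and 37 for FOXK2, against 3 and 7 and 0 and 4 in the main peaks. In JL1024 tags were few, with 6 and 8 in the GNA11 main peak against 4 and 1 in its other peaks, and 2 and 1 in the FOXK2 main peak against 0 and 4. The mean share of the main peak in inputs differed between treatments by -5.52 points for GNA11 and 6.26 points for FOXK2, with exact permutation p-values of 0.763 and 0.875. With tags summed over libraries these differences were 20.5 and 25.7 points. Of the members' peaks 6 had enough tags for a limma test in inputs, with adjusted p-values of 0.537 to 0.952. In that fit 0.0% of 17091 peaks were called higher and 0.0% lower, while 1614 had an unadjusted p under 0.05 and edgeR called 276, or 0 with TMM scaling.

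**Figure D5:**
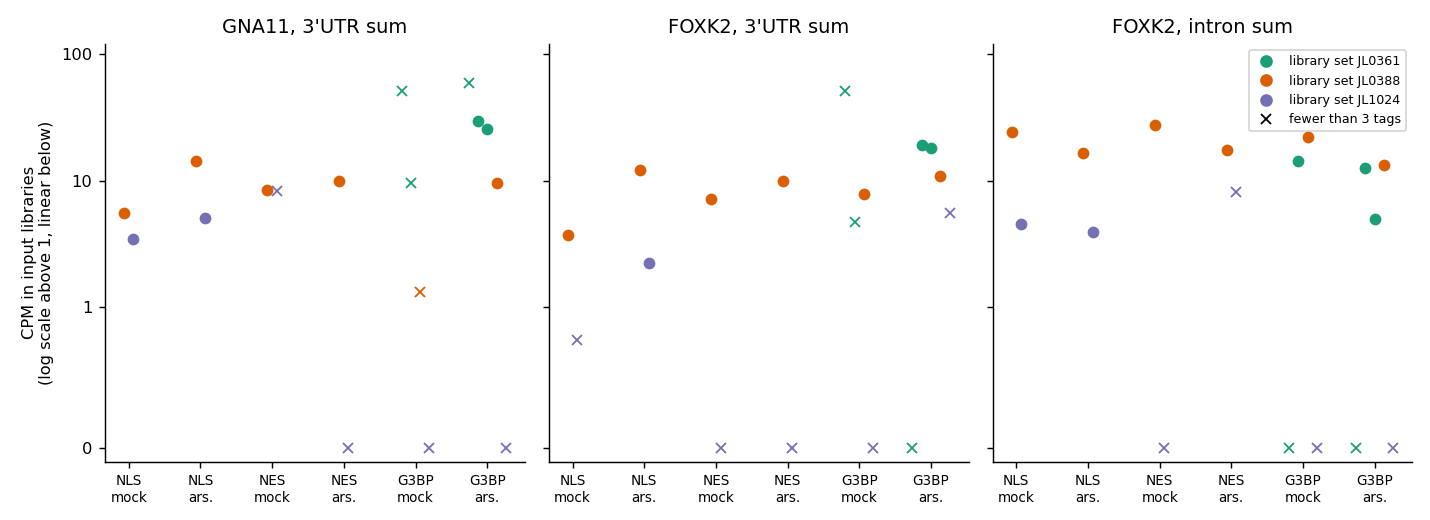
Summed CPM of GNA11 3'UTR, FOXK2 3'UTR and FOXK2 intron peaks in each input library by APEX line and treatment, on an axis that is logarithmic above 1 and linear below; colours give the library set and crosses mark values from fewer than 3 tags. Arsenite and mock values overlap in every panel, and the highest values, 50.6 and 58.6 CPM, are single tags.

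The proximity-enriched libraries held few tags of either gene. In the G3BP line GNA11 had 11 3'UTR tags in 6 mock libraries and 33 in 7 arsenite libraries, or 7.56 CPM pooled (95% counting interval 3.77 to 13.5) and 22.9 CPM (15.7 to 32.1). FOXK2 had 3 and 18 3'UTR tags there, or 2.06 CPM (0.425 to 6.02) and 12.5 CPM (7.39 to 19.7), and 1 and 0 intron tags. These pooled values mix library sets, and within sets the direction was not shared. GNA11 stood at 19.0 and 19.3 CPM in JL0361 and at 6.26 and 5.43 CPM in JL1024, and went from 0 to 10 tags in JL0388 (85.6 CPM with arsenite), where the mock libraries were very shallow. FOXK2 was lower with arsenite in JL0361, at 19.03 and 10.5 CPM, the only set with mock tags, and had 0 mock and 2 and 4 arsenite tags in JL0388 and JL1024. The limma folds were 4.63 with an interval of 1.05 to 20.3 for GNA11 and 3.11 with an interval of 0.894 to 10.8 for FOXK2, with adjusted p-values of 0.299 and 0.351. In the enriched groups 5 of the replicate pairs showed no detectable difference beyond sampling noise, 2 of them in the G3BP line; with each such pair counted as 1 sample the log2 differences were 1.63 and 1.36, with limma adjusted p-values of 0.562 and 0.575. Without libraries under 2000 tags in peaks the log2 difference turned from 2.21 to -0.58 for GNA11 and went from 1.64 to 0.83 for FOXK2. The 1417 3'UTR regions tested in that line had a median log2 difference of 1.31, and 0.0% of 2560 regions were called higher and 0.0% lower, with 415 at an unadjusted p under 0.05 and 108 called by edgeR, or 0 with TMM scaling.

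In the NLS line GNA11 had 1 mock and 4 arsenite 3'UTR tags, and FOXK2 had 1 and 2 in its 3'UTR and 7 and 2 in its introns. Only the FOXK2 introns had tags in enough libraries for a test, with a log2 difference of -0.97 and an adjusted p of 0.806 in limma. That difference ranged from -1.80 to -0.36 over 16 alternative settings, and from -1.49 to -0.36 when 1 library was left out. In the NES line the 3'UTR tags were 1 and 4 for GNA11 and 0 and 1 for FOXK2, with 1 and 0 in the FOXK2 introns, and no region of either gene was tested. Limma called 0.0% of 5238 NLS regions higher and 0.0% lower, with 342 at an unadjusted p under 0.05 and 2 called by edgeR, and 0.0% of 1554 NES regions higher and 0.0% lower, with 105 at an unadjusted p under 0.05 and 0 called by edgeR. With so few tags, no order of nuclear, cytoplasmic and stress granule proximity can be read from them.

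Genes of G protein signalling other than GNA11 were read against all genes. Of 37 such genes (receptor-coupled G protein subunits, their effectors and regulators), 26 had 3'UTR regions tested in the cytoplasm: none was called higher and 3 lower, with a median log2 difference of -0.33 against -0.30 over all 3'UTR regions, of which 0.942% were called higher and 18.6% lower. The 3 were GNB2, a G protein beta subunit (-1.45 ± 0.38 SE, adjusted p 0.0197), GNAQ, the closest paralog of GNA11 (-1.11 ± 0.25, adjusted p 0.00798), and PRKCA, a protein kinase C activated downstream of phospholipase C (-1.07 ± 0.23, adjusted p 0.00590), all by limma. The GNAQ 3'UTR averaged 4.62 ± 2.03 and 19.0 ± 6.68 CPM in mock and arsenite nuclei, without overlap and in the same direction as GNA11, but 40.1 ± 1.97 and 18.3 ± 7.45 CPM in the cytoplasm (SD, n = 3). PLCB3, a phospholipase C beta, averaged 2.97 and 16.2 CPM in nuclei and 17.1 and 9.02 CPM in the cytoplasm, where its adjusted p was 0.0709. The 3'UTRs of GNA12 and GNA13, alpha subunits of another family, differed by 0.28 and -0.62 with adjusted p-values of 0.667 and 0.164.

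Of the introns of these genes 25 were tested in the cytoplasm, and 7 were called higher and none lower, where 13.5% and 1.05% of all intron regions were, with a median of 0.59 against 0.29. The 4 with the largest differences were GNAS, a stimulatory alpha subunit (0.95), ITPR2, an IP3 receptor (0.93), GNB1, a beta subunit (0.85), and TRIO (0.76). In the nuclear fraction 12 of 23 3'UTR regions of the list were above and none below, and 2 of 25 intron regions were above and 6 below. Over all genes 33.4% of 3'UTR regions were above and 3.52% below, and 6.37% of intron regions above and 16.1% below. No region of the list was called in the inputs, where 15 3'UTRs and 18 introns were tested.

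The second list held FOXK2's relatives and partners. Of its 32 genes, 26 had 3'UTR regions tested in the cytoplasm: none was called higher and 3 lower, with a median of -0.32, beside the 0.942% and 18.6% of all 3'UTR regions. The 3 were the deacetylase HDAC2 (-1.41 ± 0.31 SE, adjusted p 0.0068), the corepressor scaffold SIN3A (-1.33 ± 0.24, adjusted p 0.00177) and SUDS3, a subunit of the SIN3 complex (-0.66 ± 0.19, adjusted p 0.0292), all by limma. The 3'UTRs of SIN3B and HDAC1, also on the list, were not called. FOXK1, the paralog of FOXK2, averaged 13.6 ± 3.34 and 44.6 ± 3.00 CPM in mock and arsenite nuclei, without overlap, and 28.5 ± 8.26 and 18.8 ± 3.21 CPM in the cytoplasm (SD, n = 3), where the difference of -0.52 ± 0.24 (SE) had an adjusted p of 0.175. Among 20 intron regions 5 were called higher and none lower, with a median of 0.40, beside 13.5% and 1.05% of all intron regions, led by FOXO3 (1.17), ASXL1 (0.94), FOXJ3 (0.89) and FOXP1 (0.68). In nuclei 13 of 25 3'UTR regions were above and none below, where 33.4% and 3.52% of all were, and 0 of 22 intron regions were above and 1 below. None of the 20 3'UTRs and 13 introns tested in the inputs was called.

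Across the 12 fraction libraries, the genes whose 3'UTR sums had the profile most like GNA11, out of 1841 with a mean of at least 10 CPM, were MAZ (Pearson r = 0.992 on the log2 scale), JUND (0.986), MORC2 (0.966), KDM2A (0.965) and UBE3A (0.965), where the median r over all genes was 0.471. JUND, a subunit of the AP-1 transcription factor, averaged 55.9 ± 1.21 and 540.3 ± 48.2 CPM in mock and arsenite nuclei and 185 ± 46.7 and 531 ± 69.6 CPM in the cytoplasm (SD, n = 3). MAZ, a zinc finger transcription factor, averaged 13.97 and 71.1 CPM in nuclei and 38.6 and 69.4 CPM in the cytoplasm. Nearest to FOXK2 were ARID1A (0.983), a subunit of the BAF chromatin remodeller, RTF1 (0.979), CTTN (0.974), MIDN (0.974) and NADK2 (0.971), against a median of 0.649. GNA11 and FOXK2 correlated with each other at 0.938, which ranked 20 for GNA11 and 42 for FOXK2. These values describe likeness only, since all points share the same libraries and depth and the groups are those that chose the pair.

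Of the peaks of other or no gene name near FOXK2, 9 were found, with overlapping mock and arsenite libraries in both fractions. A TE peak named WDR45B lay 27 bases from the FOXK2-named peak at 82622736, and an unannotated one on the minus strand 7 bases from 82522057. WDR45B, on the opposite strand beyond the end of FOXK2, had 3'UTR peaks at 82614586 and 82614777 with means of at most 2.79 CPM in any fraction group, and mock and arsenite libraries overlapped in both fractions. No peak of another gene, GNA15 included, lay within 10000 bases of a GNA11 peak.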

How the data were processed

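The authors deposited 1 table of signal per peak and library, per the file headers, for 58 HuR CLIP-seq libraries in 16 groups. The submitters' processing notes name Bowtie2, SAMtools, bedtools, HOMER and GRCh38.p14, and peak calling and duplicate removal are not given in the sources used here. Each deposited signal value is a tag count divided by a library total: whole tags were recovered for 100% of values within 0.02. Of 395471 lines, 8257 repeats were dropped, leaving 7887093 tags in 387214 peaks. Coordinates, classes and gene names are the table's; whether starts count from 0 or 1 is not stated. RefSeq gave the gene ends.

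The members, gene lists and tests were chosen with earlier results of these data known. Single peaks were described when a fraction group averaged at least 5 CPM, and the rest by ranges or, in a few cases, singly. The 5 most alike genes, and list genes called in the cytoplasm (up to 4 per direction), were named. Features with tags in as many libraries as the smaller group were tested with limma 3.58.1 (R 4.3.3) on log2(CPM + 2.283806), two-sided, Benjamini-Hochberg over all features, threshold 0.05. Library set and line were covariates where groups spanned sets. Shares were compared by exact permutation (scipy 1.17.1). The fits were tested on simulated data. Alternatives were other pseudocounts, no filter, edgeR 4.0.16 on recovered tags, other scalings, a replicate block and leaving out libraries. The input peak fit and the main-peak shares were added after seeing the data.

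Of 32 replicate pairs within sets, 5 showed no detectable difference beyond sampling noise, all in JL0388, so enriched groups are given as pooled tags; counting these pairs once is an alternative. The labels do not say that replicates were separate cultures, so p-values measure only the spread between these libraries. Counting intervals and floors (3 tags) cover counting error only, since tags carry no stated molecular identifiers. In the fraction libraries 3 tags amount to 1.71 to 4.37 CPM, in inputs 1.14 to 175.9 and in enriched libraries 3.18 to 643.5. The deposited table gives no sequence, and none is printed.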

Additional observations from a re-analysis of the deposited data

Results flagged for a closer look

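Of 21 sets of values (a gene's summed CPM in a group of 4 to 7 libraries), 10 held a library set apart from the others by the test for a single outlying value. Chance gives about 1 in 20 for continuous values, but that rate does not apply here: each of these values rests on 1 or 3 tags, and in most of the sets the other libraries are all or mostly at 0, so that a single tag stands apart by itself. In the G3BP input mock set of the FOXK2 3'UTR 1 of 4 libraries was at 0, and the value that stood apart was 1 tag in a library of 19748 tags. For the GNA11 3'UTR they were NLS enriched mock replicate 2 with 6.83 CPM from 1 tag, NES enriched mock replicate 1 with 26.4 CPM from 1 tag and NES enriched arsenite replicate 2 with 39.4 CPM from 3 tags. For the FOXK2 3'UTR they were G3BP input mock replicate 1 with 50.6 CPM from 1 tag, NLS enriched mock replicate 1 with 4.93 CPM from 1 tag, NES enriched arsenite replicate 2 with 13.1 CPM from 1 tag and G3BP enriched mock replicate 2 with 19.8 CPM from 3 tags. For the FOXK2 introns they were NLS enriched arsenite replicate 1 with 13.9 CPM, NES enriched mock replicate 2 with 19.9 CPM and G3BP enriched mock replicate 6 with 1.06 CPM, each from 1 tag.

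The distal FOXK2 3'UTR peak at 82603738 went in opposite directions in the fractions: every arsenite library was above every mock library in nuclei and below in the cytoplasm. The ratio of the arsenite to the mock mean was 4.37 in nuclei and 0.334 in the cytoplasm. With the pseudocount of the limma fits added to each mean, the log2 ratio was 2.91 higher in nuclei than in the cytoplasm. This difference between fractions was not tested, because the nuclear values chose the gene.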

How the results depend on the processing

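Over 105 results and 935 alternative values, 847 kept their direction, side of the threshold or size, 1 lost its call, 11 gained one, 23 moved and 53 changed sign. In the cytoplasm 1473 peaks were called (465 higher, 1008 lower), against 6762 with a pseudocount 4 times smaller (5162 higher, 1600 lower), 2800 with edgeR (847 higher, 1953 lower), 1747 with edgeR and TMM (1090 higher, 657 lower), and 0 to 16959 when 1 library was left out: 220, 0 and 43 without mock replicates 1, 2 and 3, and 15337, 16959 and 14659 without arsenite replicates 1, 2 and 3. The median log2 difference of all peaks was 0.08 with limma, 0.26 with edgeR and 0.59 with edgeR and TMM. Gene regions called were 3047, and 480 (without arsenite replicate 2) to 2977 when a library was left out, among them 890 and 1558 without mock replicates 2 and 3, and 973 and 791 without arsenite replicates 1 and 3. Counts from 0 became 815 (edgeR) and 265 (TMM) for input regions, 276 (edgeR) for input peaks, 108 (edgeR) for G3BP, 1 without a filter for NLS and for NES, and for NLS 2 (edgeR), 3 with agreeing pairs counted once and 0 to 2 when a library was left out (2 without NLS mock replicate 1). The cause was not tested.

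Same-numbered libraries had correlations of -0.152 to 0.0806 in the cytoplasm (3 pairs) and -0.00196 to 0.378 in inputs (8 pairs). These correlations do not settle whether the numbers pair the libraries, so a replicate block is given as an alternative. A replicate block gave 2347 cytoplasmic peak calls, the main FOXK2 peak among them with an adjusted p of 0.00999 and the distal one with 0.0383. The block gave 3064 calls of gene regions and left the enriched and input counts at 0. With it the FOXK2 3'UTR share of inputs differed by 24.2 points over 5 pairs (exact p 0.0625, the smallest that 5 pairs can give). Leaving out 1 input library gave 9.44 to 30.0 points, the latter without G3BP input mock replicate 1. The share planned for GNA11 could not be formed, as it has no intron peak. Keeping repeated lines changed no member value. In the shallowest enriched library 3 tags amount to 643.5 CPM, above the members' levels in any fraction library.

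The 53 sign changes fell on 18 results, none of which passed its test, and the cause was not tested. The GNA11 3'UTR in G3BP enriched libraries was at -0.58 (log2) without libraries under 2000 tags. The main GNA11 peak in inputs was at -0.053 with a pseudocount 4 times smaller and -0.050 scaled to tags in peaks. The distal FOXK2 peak in inputs was at 0.62 with edgeR and 0.44 with TMM. FOXK2 input introns were at -0.072 with a pseudocount 4 times larger, -0.54 with edgeR, -0.62 with TMM and -0.020 without libraries under 2000 tags. In the cytoplasm the FOXK2 peaks at 82582074 (-0.0025 with a pseudocount 4 times larger, -0.078 with edgeR), 82588197 (0.083 with TMM) and 82602353 (0.15 with TMM) changed sign. With tags summed, the main-peak share of GNA11 in inputs differed by 20.5 points and the cytoplasmic FOXK2 3'UTR share by -0.521 points.

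Leaving out 1 library gave log2 ranges across 0 for FOXK2 peaks in the cytoplasm at 82557043 (-0.086 to 0.19), 82572504 (-0.12 to 0.46), 82572870 (-0.075 to 0.28), 82577638 (-0.24 to 0.23), 82578755 (-0.024 to 0.34), 82582074 (-0.17 to 0.10), 82596641 (-0.027 to 0.24), 82602064 (-0.20 to 0.38) and 82602353 (-0.26 to 0.042), and for its TE region (-0.067 to 0.57). In inputs they were -0.24 to 0.33 for FOXK2 introns, -0.57 to 0.10 for its distal peak and -0.28 to 0.38 for the main GNA11 peak. Differences in share ranged from -13.9 to 3.82 points (GNA11 main peak, inputs), -5.51 to 5.63 (FOXK2 3'UTR, cytoplasm) and -1.03 to 22.9 (FOXK2 main peak, inputs).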
